A study of Saccharomyces cerevisiae W303 with 86 samples.

Results

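Loss of mitochondrial DNA was examined in the first of several library sets of a Saccharomyces cerevisiae study of impaired oxidative phosphorylation (the OXPHOS set). The comparison took the 3 libraries labelled rho0 in that set and the 6 libraries labelled wild type, chosen by their labels, which makes 9 of the 86 libraries of the series. All 9 held poly(A) RNA of strain W303-1A, a haploid laboratory strain of mating type a. Cells were grown untreated in synthetic complete medium with 2% glucose to mid-log phase (optical density 0.5 to 0.8), so rho0 and wild type differed, per the labels, only in the mitochondrial genome. The same set held 3 libraries each of deletions of ATP7 (a subunit of ATP synthase), COR1 (complex III) and COX9 (complex IV). The labels do not say how the rho0 cells of this set were made or whether they descend from 1 clone. Other sets of the series (named here PUF3, Puf3-15A and INH1 after what each changed) held their own wild-type and rho0 libraries, 3 of each.

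A rho0 cell has lost its mitochondrial DNA, which in yeast encodes core subunits of complexes III and IV, membrane subunits of ATP synthase, a mitochondrial ribosomal protein, and the mitochondrial rRNAs and tRNAs. Such cells live by fermentation, keep their mitochondria, and energise the inner membrane by exchanging cytosolic ATP for matrix ADP. All other mitochondrial proteins come from nuclear genes, and rho0 cells are the textbook case of retrograde signalling (nuclear genes for the first steps of the TCA cycle respond to mitochondrial damage) and of Pdr3-dependent drug resistance.

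Levels are RPKM as deposited, that is, reads scaled by gene length and by library size. The low values implied 9964506 to 13478385 reads per library, and in each of the 9 libraries 96.2% to 96.9% of genes with fewer than 400 such reads came out within 0.05 of a whole number. Differences are log2 changes from a linear model (limma, moderated test) on log2(RPKM + 1), given ± standard error, which understate the change of genes at a few RPKM. A gene was called at an adjusted p under 0.05 (Benjamini-Hochberg over the 6757 genes with at least 1 RPKM in at least 3 of the set's 18 libraries). The labels call the libraries of a group replicates and do not say that they came from separate cultures, so p-values measure the spread between these libraries, which may be technical.

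The wild-type libraries fell into 2 trios, replicates 1 to 3 and 4 to 6. Correlations of log2 levels across genes were 0.9923 to 0.9948 between libraries of the same trio and 0.9816 to 0.9861 between libraries of different trios. Between the trios 2909 genes were called (43.1% of those tested), 83 of them by more than 2-fold. The file headers number the second trio 1 to 3 again, while the labels number it 4 to 6, and neither says which trio was grown or prepared with the rho0 cells, so each result was also computed against each trio alone.

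The labels held up in the mitochondrially encoded genes. COX1, the catalytic subunit of cytochrome oxidase, lay between 3.37 and 4.61 RPKM in wild type, and OLI1, the ring-forming subunit of ATP synthase, between 3.86 and 7.39 RPKM. All 8 mitochondrially encoded protein genes were listed at 0 in each rho0 library, as were all 30 features of the mitochondrial genome. Yeast mitochondrial mRNAs carry no poly(A) tail, and the levels in wild type were low too: the 30 features summed to between 24.6 and 38.2 RPKM, and ATP8 and VAR1 were at 0 there. No fold change is given against a group at 0. The 7 genes specific to mating type a were present in both strains and summed to 1635 to 2096 RPKM in wild type 1 to 3, to 1249 to 1431 in wild type 4 to 6 and to 1708 to 1720 in rho0.

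Levels of nuclear genes differed broadly between rho0 and wild type. Which libraries shared a preparation with rho0 is not given, so strain and preparation cannot be told apart in these differences. Genes for building and running mitochondrial translation, for assembling the respiratory complexes and for the first steps of the TCA cycle rose, as did the drug pump gene PDR5 and the small heat-shock gene HSP12. Genes for subunits of ATP synthase and complex III, for cytosolic ribosomal proteins and, by the largest factors, for phosphate acquisition fell. In all, 3296 genes were called (48.8%), 1705 higher (25.2%) and 1591 lower (23.5%) in rho0. Most were small changes, with a median absolute log2 change over all genes of 0.20. The rho0 and wild-type libraries did not overlap for 41.6% of genes tested (26.7% higher and 15% lower), so a gap between the groups was common. Against wild type 1 to 3 alone 3895 genes were called (57.6%), and against wild type 4 to 6 alone 4009 (59.3%). Of the 3296, 2616 were called in the same direction against both trios (38.7% of genes tested), 1371 higher (20.3%) and 1245 lower (18.4%). These are referred to as held against both trios, and 213 of the higher and 42 of the lower ones exceeded 2-fold. Another 341 genes were called in opposite directions against the trios. Without rescaling of libraries the split moved to 2045 higher and 1128 lower, and the median of all genes shifted by 0.06.

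**Figure D1:**
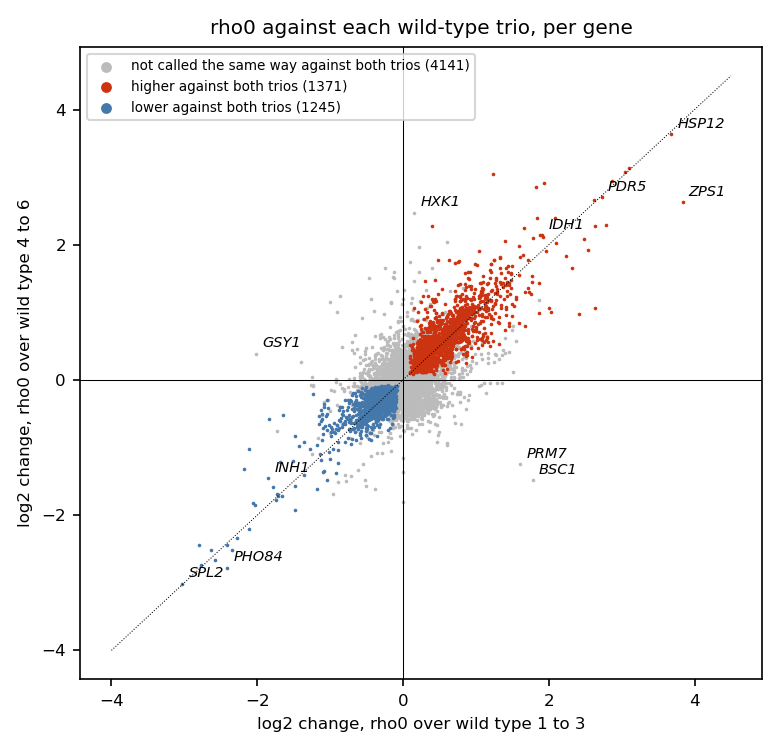
Log2 change of rho0 over wild type 1 to 3 (horizontal) and over wild type 4 to 6 (vertical) for each of the 6757 genes tested. Both axes use the same 3 rho0 libraries. Red and blue points are the 1371 higher and 1245 lower genes called in the same direction against both trios, the dotted line marks equal change, and named genes away from it, such as BSC1 and GSY1, depend on the trio.

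The machinery of mitochondrial translation rose almost as a block. All 42 genes for the large subunit of the mitochondrial ribosome were called higher, with a median log2 change of 0.92, and all 31 for the small subunit, with a median of 0.88; every call held against both trios. The median over all genes tested was 0.00. MRPL31, a large-subunit protein gene on chromosome XI (185286 to 185681 in R64), lay at 107, 110 and 122 RPKM (lowest, median, highest) in wild type and at 311, 310 and 320 RPKM in rho0. The groups were far apart, and the log2 change was 1.40 ± 0.04 (adjusted p = 4.2e-14, limma). For MRP1, a small-subunit gene, wild type spanned 110 to 128 RPKM around a median of 120, and rho0 held 251, 257 and 240 RPKM. Its log2 change was 0.98 ± 0.05 (adjusted p = 5.6e-11, limma).

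Most factors that serve this ribosome moved with it, while the gene MEF2 fell. All 14 mitochondrial aminoacyl-tRNA synthetase genes, which charge tRNAs, were called higher and held against both trios, with a median log2 change of 0.72. Of 9 translation factor genes 7 were called higher, 6 of them against both trios, MEF2 was called lower and 1 was not called. Against wild type 1 to 3 alone 6 were higher and 2 lower. MEF1, the elongation factor G that moves the ribosome along the mRNA, rose from a wild-type range of 74.7 to 94.2 RPKM to 199, 205 and 198 RPKM in rho0, a log2 change of 1.17 ± 0.05 (adjusted p = 4.3e-11, limma). MEF2, the related factor that acts in ribosome recycling, lay at 15.1, 20.1 and 24.2 RPKM in wild type and at 8.37, 8.88 and 7.56 RPKM in rho0. Every rho0 value was below every wild-type value, and the log2 change was -1.20 ± 0.12 (adjusted p = 2.8e-07, limma). The activators that each serve a particular mitochondrial mRNA moved less: 13 of 21 were called higher, 11 of them against both trios, and their median was 0.24. Genes for maintaining and transcribing mitochondrial DNA showed no common direction, with 7 of 18 higher and 4 lower.

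Genes for assembling the respiratory complexes and ATP synthase rose, although rho0 cells lack the mitochondrially encoded subunits of these complexes. For cytochrome oxidase 23 of 25 assembly genes were called higher with a median log2 change of 0.95, and all 23 held. COX17, the copper chaperone of the enzyme, was at 109, 121 and 140 RPKM in wild type and at 348, 367 and 328 RPKM in rho0. That is a log2 change of 1.43 ± 0.10 (adjusted p = 3.4e-09, limma) between groups that did not overlap. COX23, a relative of COX17, rose by 1.53 ± 0.10 (log2), from at most 33.8 RPKM in wild type to at least 82.2 RPKM. All 6 complex III assembly genes were higher with a median of 1.18. CBP4, needed to build that complex, went from 31.8 to 41.9 RPKM in wild type to 96.9, 99.0 and 93.5 RPKM (log2 change 1.35 ± 0.07). Of 7 ATP synthase assembly genes 6 were higher (median 0.74).

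Import genes followed more moderately. Of 11 genes for the presequence translocase TIM23 and its motor 9 were called higher (median log2 change 0.51), and TIM21, which couples that translocase to respiratory complexes, fell. All 11 genes of the TIM22, small TIM and intermembrane-space import group were higher (median 0.49), and 10 held against both trios. In the outer membrane 7 of 12 were higher and TOM71, a minor import receptor, fell. Matrix chaperones and proteases were higher in 11 of 15, of which 9 held.

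The structural subunits took the opposite course. Of 14 nuclear genes for ATP synthase subunits 13 were called lower, 12 of them against both trios, with a median log2 change of -0.66. ATP2, the catalytic beta subunit, lay at 830, 925 and 1026 RPKM in wild type and at 453, 451 and 468 RPKM in rho0. The log2 change was -1.08 ± 0.05 (adjusted p = 1.0e-10, limma). All 9 complex III subunit genes were lower (median -0.54), 8 of them against both trios. COR1, a core subunit, went from 253 to 352 RPKM in wild type to 185, 178 and 185 RPKM in rho0 (log2 change -0.74 ± 0.08). Among the 12 genes for nuclear complex IV subunits and cytochrome c, 8 were lower and 3 higher, of which 6 and 3 held against both trios. COX5A, the aerobic isoform of subunit 5, fell by 0.74 ± 0.06 (log2), with 262 to 339 RPKM in wild type and 185, 186 and 174 RPKM in rho0. Its hypoxic counterpart COX5B rose by 0.66 ± 0.17, from a wild-type median of 67.6 RPKM to 112, 121 and 111 RPKM. The cytochrome c genes also rose: CYC1, the major isoform, went from 645 to 747 RPKM in wild type to 1189, 1221 and 1242 RPKM (log2 change 0.73 ± 0.06), and CYC7, the hypoxic isoform, from a median of 22.2 RPKM to 37.4, 45.1 and 57.2 RPKM (1.13 ± 0.33). Against wild type 1 to 3 alone the CYC7 value was 0.48.

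Complex II, which has no mitochondrially encoded subunit, gave no stable picture. SDH1, its flavoprotein, was called lower, with 98.2 to 184 RPKM in wild type and 85.1, 88.0 and 85.9 RPKM in rho0. Its log2 change was -1.04 ± 0.05 against wild type 1 to 3 but -0.30 ± 0.05 against wild type 4 to 6. For the membrane anchors SDH3 and SDH4 the sign depended on the trio: SDH3 changed by -0.18 and 0.23 and SDH4 by -0.36 and 0.13 against wild type 1 to 3 and 4 to 6.

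The genes that control ATP hydrolysis and exchange diverged. INH1 on chromosome IV (135179 to 135436 in R64) encodes the protein that stops ATP synthase from running backwards and hydrolysing ATP. It lay at 185, 238 and 283 RPKM in wild type and at 75.6, 73.9 and 79.3 RPKM in rho0, a log2 change of -1.65 ± 0.10 (adjusted p = 8.2e-10, limma). Each rho0 value was less than the lowest wild-type value. Its relatives STF1 and STF2 were higher instead. STF1 reached 175, 185 and 185 RPKM against a wild-type range of 50.2 to 114 RPKM (1.35 ± 0.19), and STF2 reached 164, 193 and 169 RPKM against 54.9 to 157 RPKM (0.79 ± 0.22). STF1 changed by 0.99 and 1.72 against wild type 1 to 3 and 4 to 6, and STF2 by 0.41 and 1.17. PET9, the main ADP/ATP carrier, fell by 0.48 ± 0.04 on the log2 scale, with 718, 742 and 701 RPKM against 908 to 999 RPKM. MIR1, the phosphate carrier of the inner membrane, fell by 0.60 ± 0.04. The minor carriers AAC1 and AAC3 were not called.

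**Figure D2:**
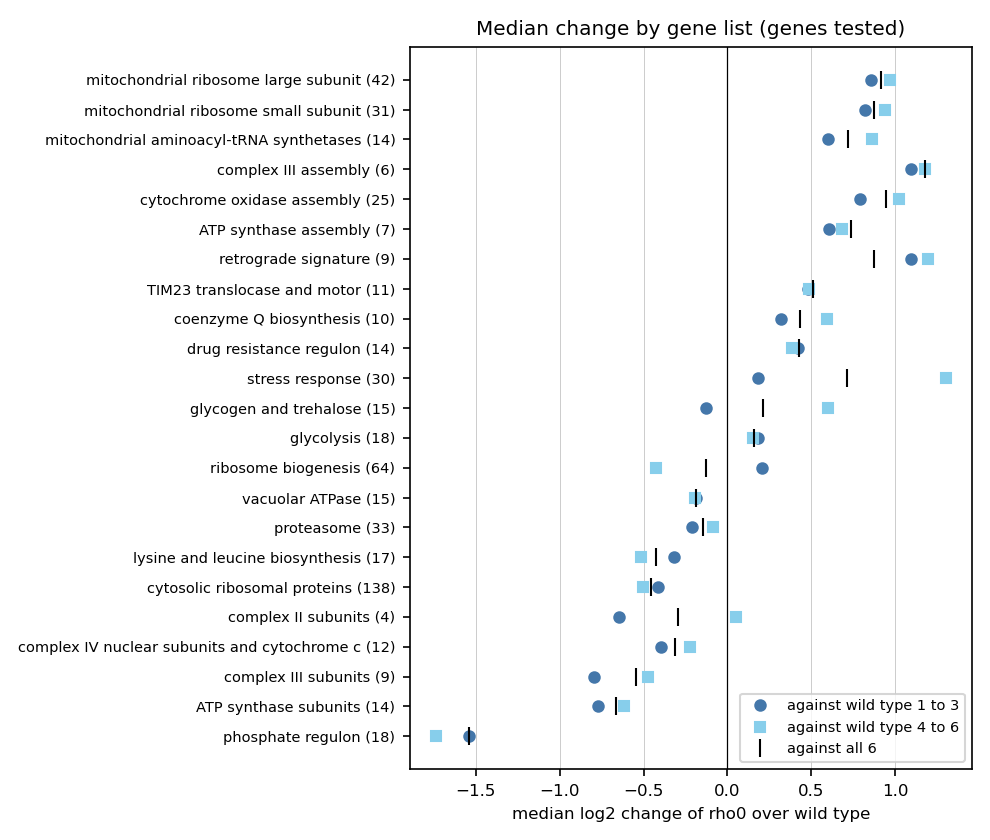
Median log2 change of rho0 over wild type for 23 gene lists, with the number of genes tested in brackets. Circles and squares are the medians against wild type 1 to 3 and 4 to 6, and vertical ticks against all 6. Mitochondrial ribosome and assembly lists lie right of 0 and the phosphate regulon furthest left, while stress response, glycogen and trehalose, ribosome biogenesis and complex II shift with the trio.

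The first TCA steps, which supply 2-oxoglutarate for glutamate, were raised and the later steps were not raised as a group. IDH1 and IDH2 encode the subunits of NAD-dependent isocitrate dehydrogenase. IDH1 lay at 203, 230 and 261 RPKM in wild type and at 977, 1003 and 954 RPKM in rho0 (log2 change 2.02 ± 0.07, adjusted p = 7.3e-13, limma). IDH2 went from 281 to 383 RPKM to 1312, 1346 and 1344 RPKM (1.95 ± 0.08). ACO1, aconitase, went from 481 to 737 RPKM to 1816, 1860 and 1871 RPKM (1.57 ± 0.12). All 3 genes were far above the wild-type range. Over the 9 genes of the retrograde signature 8 were called higher and held against both trios, with a median of 0.87. PDH1, a 2-methylcitrate dehydratase of propionate breakdown, was the gene with the largest change in the list: 10.5 to 15.9 RPKM in wild type and 64.4, 69.9 and 68.0 RPKM in rho0 (2.24 ± 0.11). The smallest change in the list was 0.21, for DLD3. CIT2, the peroxisomal citrate synthase and classic reporter of the pathway, was the gene not called. It lay at 269, 265 and 266 RPKM in wild type 1 to 3, at 160, 166 and 167 RPKM in wild type 4 to 6 and at 281, 268 and 261 RPKM in rho0. Its log2 change was 0.30 ± 0.15 (adjusted p = 0.11, limma), and the value was -0.02 against wild type 1 to 3 and 0.61 against wild type 4 to 6. The 6 regulators of the pathway included 0 higher and 1 lower. Among 7 later TCA genes 2 were higher and 3 lower. The glutamate synthesis genes GDH1 and GLT1 were lower (-0.21 and -0.15), but GLT1 was not called against wild type 1 to 3 alone (-0.12, adjusted p = 0.064, limma).

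HAP4, the limiting subunit of the HAP activator of respiratory genes, was higher in rho0 although most respiratory subunit genes were lower. It lay at 96.0, 106 and 119 RPKM in wild type and at 221, 233 and 277 RPKM in rho0 (log2 change 1.11 ± 0.16, adjusted p = 1.8e-05, limma). The change was 1.17 and 1.06 against the respective trios. Its partners HAP3 and HAP5 were called higher as well, as was ROX1, the repressor of hypoxic genes. In this list of 16 tested genes 8 were higher and 0 lower, and 6 of the 8 held. PUF3, which encodes an RNA-binding protein that acts on mRNAs for mitochondrial proteins, went from 40.2 to 48.7 RPKM to 86.3, 88.9 and 84.2 RPKM (0.85 ± 0.07).

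Apart from the trio-dependent ZPS1, a zinc-responsive gene, HSP12 and TDH1 showed the largest log2 rises of all genes tested. HSP12, a membrane-protecting small heat-shock protein (chromosome VI, 107256 to 107585 in R64), lay at 147, 165 and 196 RPKM in wild type and at 2160, 2361 and 2141 RPKM in rho0. That is a log2 change of 3.66 ± 0.17 (adjusted p = 4.3e-11, limma), and 3.68 and 3.63 against the trios. TDH1, the glyceraldehyde-3-phosphate dehydrogenase isozyme of slow growth, went from 84.0 to 129 RPKM to 865, 897 and 989 RPKM (3.12 ± 0.14). Reads of TDH1 may be shared with the similar TDH2 and TDH3, whose changes were 0.49 and 0.12. GPG1, a small subunit-like partner of a G protein, rose by 2.91 ± 0.10, from a wild-type range of 6.26 to 8.76 RPKM to 62.6, 61.3 and 66.3 RPKM. PIR3, a cell wall glycoprotein, rose by 2.64 ± 0.09, to 198, 222 and 230 RPKM.

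Fermentation genes moved in both directions. Of 18 glycolysis genes 12 were called higher and 4 lower, 10 and 3 of them against both trios, with a median log2 change of 0.16. ENO1, an enolase isozyme, rose by 0.98, and PDC5, a minor pyruvate decarboxylase, fell by 0.42. In the glycerol branch, which re-oxidises cytosolic NADH, 7 of 10 genes were higher and held, led by the glycerol-phosphatase gene GPP2 (1.17). Among 14 genes of hexose transport and its sensors 7 were higher and HXT4 lower (-0.90); reads of the near-identical HXT6 and HXT7 cannot be told apart. Of 23 genes that serve growth on acetate and other non-sugars (gluconeogenesis and the glyoxylate cycle) 16 were higher and 2 lower (median 0.50). Of all genes tested 25.2% were called higher and 23.5% lower. Rises that held and were called in each other set (compared below) covered 8 of 18 glycolysis genes and 4 of the 23 non-sugar genes. They covered 0 of 10 glycerol-branch genes and 0 of 14 hexose transport genes, against 769 of all 6757 genes tested. Falls of this kind numbered 1, 1, 1 and 0 in these lists, in the same order, and 592 over all genes.

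Most genes of the drug resistance regulon rose, led by the pump gene PDR5. PDR5, an efflux pump for many drugs (chromosome XV, 619840 to 624375 in R64), lay at 88.3, 93.0 and 101 RPKM in wild type and at 682, 623 and 637 RPKM in rho0. The log2 change was 2.72 ± 0.06 (adjusted p = 2.4e-15, limma), with the same size against either trio. PDR3, the activator that answers to mitochondrial loss, went from 22.2 to 24.7 RPKM to 47.2, 46.1 and 46.2 RPKM (0.91 ± 0.05). PDR15, a pump related to PDR5, rose by 1.57 ± 0.13, whereas PDR1, the constitutive activator, and PDR10, another pump gene, were not called (0.10 and 0.05). Of the 14 genes of the list 10 were higher, 9 of them against both trios, and 0 lower (median 0.43).

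The phosphate regulon held most of the largest falls. Of 18 genes 16 were called lower, all of them against both trios, and 1 higher, with a median log2 change of -1.54, against a median of 0.00 over all genes. PHO84, the high-affinity phosphate transporter (chromosome XIII, 24037 to 25800 in R64), lay at 875, 1021 and 1156 RPKM in wild type and at 166, 191 and 170 RPKM in rho0. Its log2 change was -2.59 ± 0.09 (adjusted p = 2.3e-12, limma). SPL2, which down-regulates low-affinity phosphate uptake, lay at 86.6, 92.4 and 101 RPKM in wild type and at 10.1, 13.0 and 10.3 RPKM in rho0 (-3.02 ± 0.10). PHO5, the secreted acid phosphatase, went from 216 to 287 RPKM to 45.0, 53.4 and 47.3 RPKM (-2.43 ± 0.09). The largest falls were picked among genes without overlap between rho0 and wild type, so the gap between these groups is no added support. Over all genes tested 15% lay lower in rho0 without overlap.

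The remaining phosphate genes moved the same way, with 2 exceptions. VTC3 and VTC4, of the complex that makes vacuolar polyphosphate, changed by -2.42 ± 0.04 and -1.71 ± 0.03, and GIT1, a glycerophosphoinositol transporter, by -2.58 ± 0.17. GIT1 had its highest wild-type value, 69.6 RPKM, in replicate 1 and lay between 36.8 and 46.9 RPKM in the others, against 6.87, 6.61 and 7.17 RPKM in rho0. The acid phosphatases PHO11 and PHO12 are nearly identical and their reads cannot be assigned with certainty; their values were -1.94 and -2.62. PHO81, the kinase inhibitor that switches the pathway on, was itself lower (-0.99 ± 0.04), from 66.0 to 71.0 RPKM to 36.3, 36.2 and 34.3 RPKM. PHO3, a constitutive acid phosphatase, was the 1 gene called higher (0.25). PHO89, a sodium-dependent phosphate transporter, was not called: it lay at 2.92, 4.95 and 4.13 RPKM in wild type 1 to 3, at 16.2, 14.1 and 15.8 RPKM in wild type 4 to 6 and at 3.73, 4.64 and 3.69 RPKM in rho0. Of 7 further phosphate genes (the activators PHO4 and PHO2, the kinase PHO85 with its cyclin PHO80, and the low-affinity transporters PHO87, PHO90 and PHO91) only PHO87 was called, higher by 0.59 ± 0.08.

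**Figure D3:**
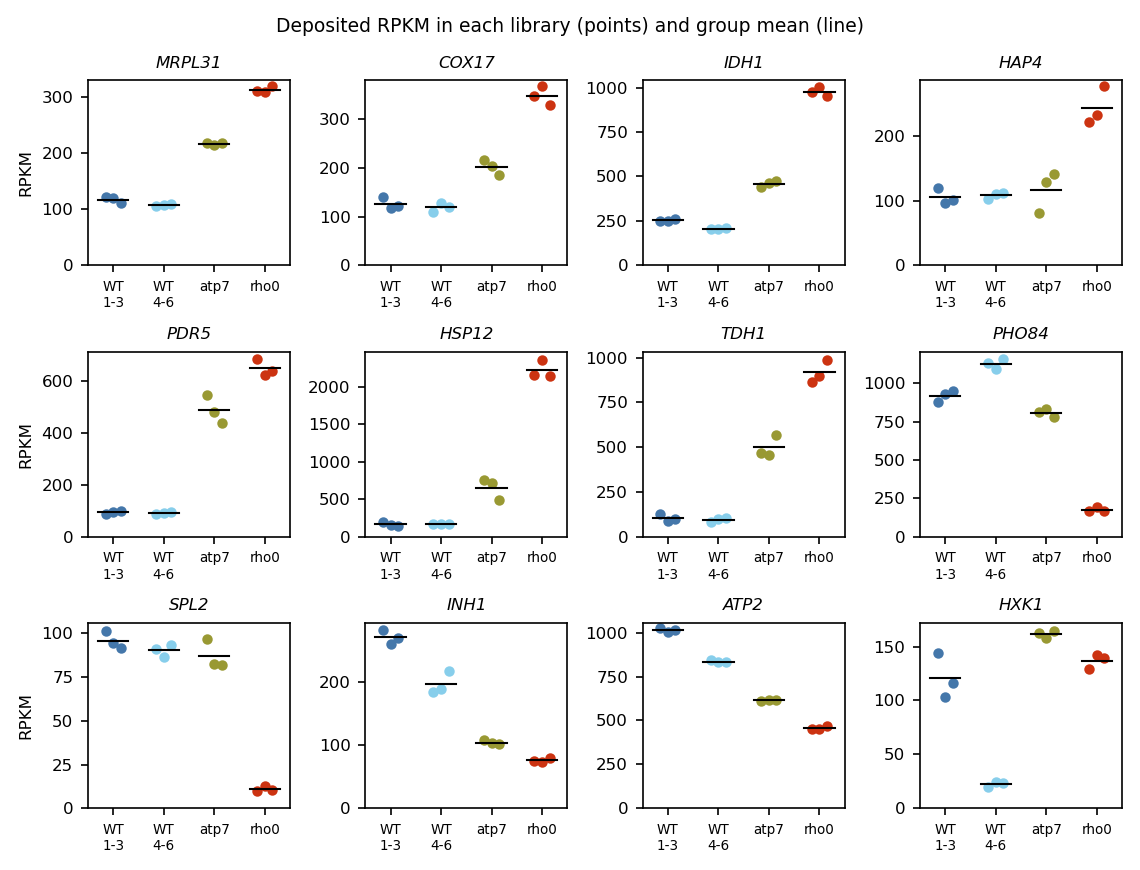
Deposited RPKM (vertical axis, from 0) of 12 genes in each library of wild type 1 to 3, wild type 4 to 6, the atp7 deletion and rho0; points are libraries and lines are group means. PHO84 and SPL2 are low only in rho0 among these groups, MRPL31, IDH1 and INH1 lie between wild type and rho0 in atp7, and HXK1 differs between the wild-type trios.

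Genes of the iron and copper lists rose in part, while the zinc list had no common direction. ZPS1, a zinc-responsive cell wall protein gene, lay at 17.8, 38.5 and 71.4 RPKM in wild type and at 365, 460 and 351 RPKM in rho0 (log2 change 3.23 ± 0.45, adjusted p = 1.6e-05, limma). It also differed between the trios, and its change was 3.83 against wild type 1 to 3 and 2.63 against wild type 4 to 6. Of the 11 zinc-responsive genes 6 were higher and 3 lower, 3 and 3 of them against both trios, and the zinc-sensing activator ZAP1 was among the lower ones (-0.50). Shares over all genes were 25.2% higher and 23.5% lower, with 20.3% and 18.4% held against both trios. Of 25 iron regulon genes 12 were higher, 10 of them against both trios; the largest values were 1.71 for the cell wall mannoprotein FIT2 and 1.37 for the heme oxygenase HMX1. All 5 tested copper-responsive genes were higher (median 0.60), and the duplicated metallothionein genes CUP1-1 and CUP1-2 did not pass the filter.

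Growth-related genes fell in part. Of 138 cytosolic ribosomal protein genes 131 were called lower and 2 higher, with a median log2 change of -0.46, and 128 of the lower calls held against both trios. Most are pairs of near-identical paralogs whose reads cannot be fully separated. Ribosome biogenesis genes did not follow: 7 of 64 were lower against all 6 wild types, but 41 were higher against wild type 1 to 3 and 64 lower against wild type 4 to 6, with medians of 0.20 and -0.43. Over all genes tested 30.9% were called higher against wild type 1 to 3, and 28.8% higher and 30.5% lower against wild type 4 to 6. The median difference between the trios was 0.65 for this list. Proteasome genes were lower in 23 of 33 (median -0.15, 14 held) and vacuolar ATPase genes in 11 of 15 (median -0.19, 10 held). Against all 6 wild types 25.2% of all genes were called higher and 23.5% lower, with 20.3% and 18.4% held. The proteasome change was small and varied with the trio, with medians of -0.213 against wild type 1 to 3 and -0.085 against 4 to 6. Between the trios 25 of the 33 were lower in wild type 4 to 6. Lysine and leucine synthesis genes were lower in 12 of 17 (median -0.43, 11 held), led by LYS9, a step of lysine synthesis, at -0.79. Arginine synthesis genes were higher in 6 of 11, led by ARG3, ornithine carbamoyltransferase, at 1.13, but 4 of the 6 held and the list median was 0.37 against wild type 1 to 3 and 0.05 against wild type 4 to 6. MEP2, the high-affinity ammonium permease, fell by 1.45 ± 0.14, from 321 to 519 RPKM in wild type to 169, 145 and 144 RPKM. IMD2, an IMP dehydrogenase with close paralogs, fell by 1.40 ± 0.15.

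General stress and reserve carbohydrate genes depended on which wild type served as the control. Of 30 stress genes 19 were called higher and 1 lower (median log2 change 0.72), but the median was 0.18 against wild type 1 to 3 and 1.31 against wild type 4 to 6, and 14 of the 19 held. Between the trios 23 of the 30 were lower and 1 higher in wild type 4 to 6. For 15 glycogen and trehalose genes the medians were -0.13 and 0.60. HXK1, hexokinase isoenzyme 1, lay at 144, 103 and 116 RPKM in wild type 1 to 3, at 19.4, 24.0 and 23.3 RPKM in wild type 4 to 6 and at 129, 142 and 139 RPKM in rho0. The rho0 libraries overlapped with the first trio and lay far above the second. GSY1, a glycogen synthase, was at 27.1, 25.5 and 24.9 RPKM in the first trio, at 4.15, 3.74 and 3.78 RPKM in the second and at 3.62, 6.54 and 7.87 RPKM in rho0. RGI1, a gene of respiratory growth, changed by -1.002 ± 0.18 and 1.16 ± 0.18 against the respective trios. BSC1 and its neighbour PRM7 went the other way, with log2 changes of 1.78 and 1.61 against wild type 1 to 3 and of -1.49 and -1.25 against wild type 4 to 6. HSP12 and HSP26 are members of the stress list that did not depend on the trio. DDR2, another member, rose by 1.82 and 2.86 against them. What sets the trios apart was not tested.

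The direct comparison with the atp7 deletion used no wild-type library. The cells differ in that atp7 lacks a nuclear subunit of ATP synthase but keeps mitochondrial DNA, whose 30 features summed to 47.8 to 63.0 RPKM there. Between rho0 and atp7 2064 genes were called (30.5%), 1213 higher (18%) and 851 lower (12.6%) in rho0, and 87 differed by more than 2-fold. The split between higher and lower depended on the rescaling of libraries: with rho0 replicate 1, 2 or 3 left out and the rescaling redone, 632 to 653 genes were higher and 813 to 858 lower, whereas with the factors kept the higher genes were the larger group. With only rho0 and atp7 fitted, 1541 genes were higher and 1649 lower. Against the cor1 deletion 2930 genes were called (43.4%) and against cox9 2902 (42.9%). Which strains shared a preparation with rho0 is not given in the labels, so strain and preparation cannot be told apart in these differences.

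Among the lists of nuclear genes, the phosphate regulon had the largest median difference between rho0 and atp7. Again 16 of 18 were lower in rho0, with a median log2 difference of -1.13. The 18 genes summed to 3780 to 3834 RPKM in atp7, below the 4066 to 4391 RPKM of the wild-type libraries and above the 1625 to 1677 RPKM of rho0. SPL2 was at 96.8, 82.2 and 81.7 RPKM in atp7 against 10.1, 13.0 and 10.3 RPKM in rho0, a difference of -2.83 ± 0.11 (adjusted p = 3.5e-11, limma). PHO84 was at 815, 834 and 778 RPKM in atp7, below the wild-type range, and differed by -2.17 ± 0.11. PHO5 was at 251, 242 and 271 RPKM and differed by -2.34 ± 0.10. GIT1, at 16.3, 14.6 and 15.9 RPKM in atp7, lay below the wild-type range there too and differed by -1.04 ± 0.19.

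Mitochondrial biogenesis genes differed by less. The mitochondrial ribosome lists were higher in rho0 than in atp7 in 39 of 42 large-subunit and 30 of 31 small-subunit genes, with medians of 0.37 and 0.34. MRPL31 was at 219, 215 and 218 RPKM in atp7, between the wild-type and rho0 values. All 6 complex III assembly genes and 14 of 25 cytochrome oxidase assembly genes were higher, with medians of 0.45 and 0.31. IDH1, at 440, 464 and 475 RPKM in atp7, was higher in rho0 by 1.12 ± 0.08. HAP4 lay at 81.3, 129 and 141 RPKM in atp7, around the wild-type level, and was higher in rho0 by 1.11 ± 0.18 (adjusted p = 0.00041, limma). HSP12 was at 752, 712 and 495 RPKM in atp7 and higher in rho0 by 1.82 ± 0.19. The stress list did not follow HSP12: 5 of 30 genes were higher and 1 lower, with a median of -0.13. PDR5 differed by 0.45 ± 0.07 and PDR3 was not called (0.14 ± 0.06). Of the 14 drug resistance genes 3 were higher and 2 lower (median 0.14), and of 10 coenzyme Q synthesis genes 0 were called. Over all genes tested 18% were higher and 12.6% lower.

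Of the 14 ATP synthase subunit genes 6 were lower and 2 higher in rho0 than in atp7 (median -0.16), and 1 of the 2 was the deleted ATP7 itself. INH1, at 108, 104 and 101 RPKM in atp7, was lower in rho0 by a further log2 difference of -0.41 ± 0.11. PET9 and MIR1 were not called, with differences of 0.06 ± 0.04 and 0.08 ± 0.05. ZPS1 was at 27.5, 29.8 and 22.3 RPKM in atp7, so that rho0 was higher by 3.86 ± 0.52, and the zinc transporter gene ZRT1 was higher by 1.62 ± 0.20. Ribosome biogenesis genes were higher in rho0 in 26 of 64 and lower in 0 (median 0.44). Of 138 cytosolic ribosomal protein genes 7 were higher, 34 lower and 97 not called (median -0.08).

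**Figure D4:**
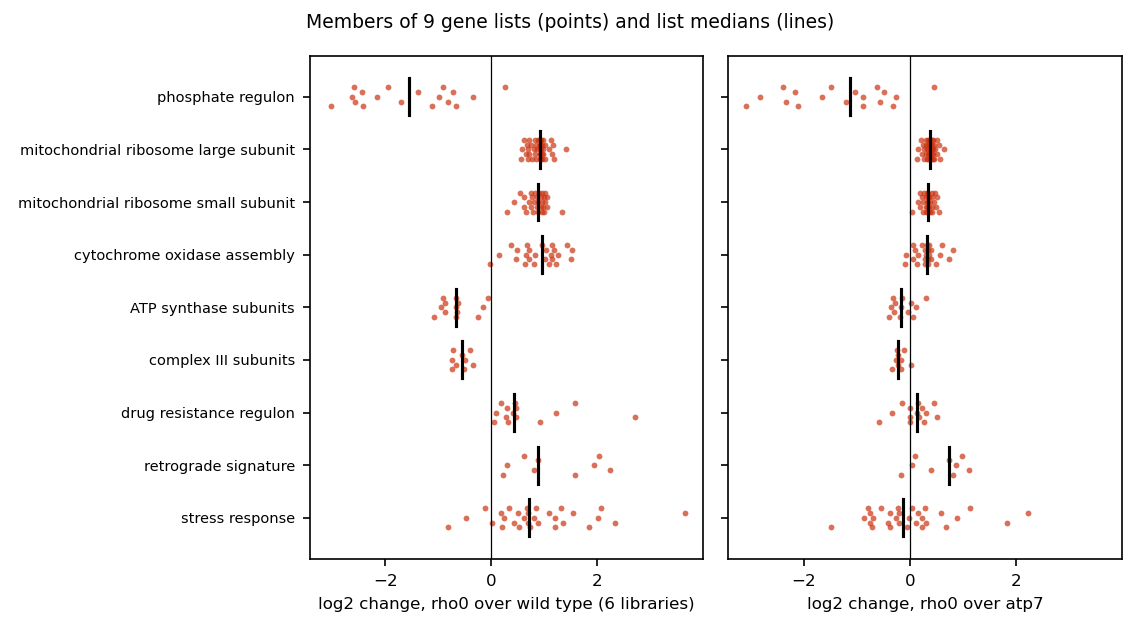
Log2 change of rho0 over the 6 wild-type libraries (left) and over atp7 (right) for members of 9 gene lists; points are genes, vertical lines are list medians, and ATP7 itself is left out. The phosphate regulon stays left of 0 in both panels, with medians of -1.54 and -1.13, while the mitochondrial ribosome lists move closer to 0 in the right panel.

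The same contrast in the PUF3 set, with its own libraries, gave 1639 called genes of 6727 (24.4%), 795 higher (11.8%) and 844 lower (12.5%). Phosphate genes were lower in rho0 than in atp7 in 12 of 18 there (median -0.65) and mitochondrial large-subunit genes higher in 19 of 42 (median 0.18). Complex III assembly genes were higher in 3 of 6 (median 0.19). Of 25 cytochrome oxidase assembly genes only 1 was higher and 1 lower (median 0.05). In the retrograde signature 2 of 9 were higher (median 0.04), against 5 of 9 in the OXPHOS set (median 0.72). HSP12 and ZPS1 were not called there, with values of -0.17 and 0.08. Of 30 stress genes 0 were higher and 14 lower in rho0 (median -0.87).

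The rho0 change was also measured in the PUF3, Puf3-15A and INH1 sets, each against its own wild type, in a model over the 27 libraries (6853 genes tested). It called 2816 (41.1%), 2913 (42.5%) and 3783 genes (55.2%) in these sets. Of the 2616 genes held against both trios, 1762 were called in the same direction in the PUF3 set (67.4% of these genes and 62.6% of that set's calls), and 22 in the opposite direction. In the Puf3-15A set 1961 went the same way (75.0% and 67.3%) and 7 the opposite way. In the INH1 set 1933 did (73.9% and 51.1%), and 43 the opposite way. The genes called the same way in all 3 further sets numbered 1361, 769 higher and 592 lower.

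Libraries of these sets stood apart in mating-type genes, which bears on the comparisons that use them. In the INH1 set the 3 libraries labelled wild type held 20.3 to 27.2 RPKM summed over the 7 genes of mating type a, against 2070 to 2160 RPKM in the rho0 libraries of that set, so the wild-type libraries go against mating type a of the labelled strain W303-1A. The 4 genes specific to mating type alpha summed to 29.4 to 34.7 RPKM there, against 27.1 to 32.5 RPKM in wild type of the OXPHOS set. In the PUF3 set the mating type a sum was 566 to 831 RPKM in wild type and 2529 to 2787 RPKM in rho0. All 11 haploid-specific genes were called higher in rho0 in the INH1 set (median 2.72), and 10 of 11 in the PUF3 set (median 1.21). Over all genes 26.7% and 20.8% were called higher there. In the Puf3-15A set 0 of the 11 were higher and 4 lower (19.1% and 23.4% of all genes). MFA1 and MFA2, the a-factor genes, and STE2, the alpha-factor receptor gene, gave differences between sets of up to -7.79 on the log2 scale. What part a difference in strain has in the other genes of these comparisons was not tested. Wild type of the INH1 set also had low phosphate genes, with a mean of 167 RPKM for PHO84 and 12.8 RPKM for SPL2.

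Mitochondrial ribosome and ATP synthase subunit genes changed in the same direction in each set, but the ribosome genes by more in the OXPHOS set. All 42 large-subunit genes were called higher in each of the 3 other sets, with medians of 0.70, 0.60 and 0.66 in the PUF3, Puf3-15A and INH1 sets. Of all genes 20.8%, 19.1% and 26.7% were called higher there. The OXPHOS-set change was larger than these for 9, 21 and 15 of the 42 genes by a test of the difference, and smaller for 0; that test called 3.63%, 2.12% and 8.87% of all genes higher. ATP synthase subunit genes were lower in 13, 14 and 14 of 14 (medians -0.76, -0.70 and -0.76, against 20.3%, 23.4% and 28.5% of all genes lower there), and the difference from the OXPHOS set was called for 1, 0 and 1 of them. INH1 fell in each set, by 2.14, 1.88 and 1.67, and PDR5 rose by 2.01, 2.32 and 3.22 (log2). MEF2 was lower in each, at -1.47, -1.37 and -1.28.

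Phosphate genes and ZPS1 changed more in the OXPHOS set than in most of the others. Phosphate genes were lower in rho0 in 15, 16 and 10 of 18 in the PUF3, Puf3-15A and INH1 sets, but with medians of -0.73, -0.85 and -0.29 against -1.54 here. The test of the difference between sets called 14, 11 and 15 of the 18 as lower in the OXPHOS set, at backgrounds of 5.71%, 1.15% and 9.62% of genes called in that direction. SPL2 changed by -1.34, -1.25 and -1.05 in those sets, and the gap to the OXPHOS set was -1.80 for Puf3-15A. ZPS1 changed by 0.56 and -0.35 in the PUF3 and INH1 sets, where it was not called, and by 2.68 in the Puf3-15A set. HAP4 rose by 0.93 and 1.02 in the PUF3 and Puf3-15A sets, but in the INH1 set its mean was 175 RPKM in wild type and 176 RPKM in rho0. The retrograde signature was called higher in 4 of 9 genes in each of these sets, against 8 here. In the PUF3, Puf3-15A and INH1 sets 1, 0 and 1 of the 9 were lower, and the medians were 0.19, 0.55 and 0.44. Over all genes 20.8%, 19.1% and 26.7% were called higher there. The test of the difference called 5, 2 and 3 of the 9 as higher in the OXPHOS set. CIT2 was not called in any of them.

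**Figure D5:**
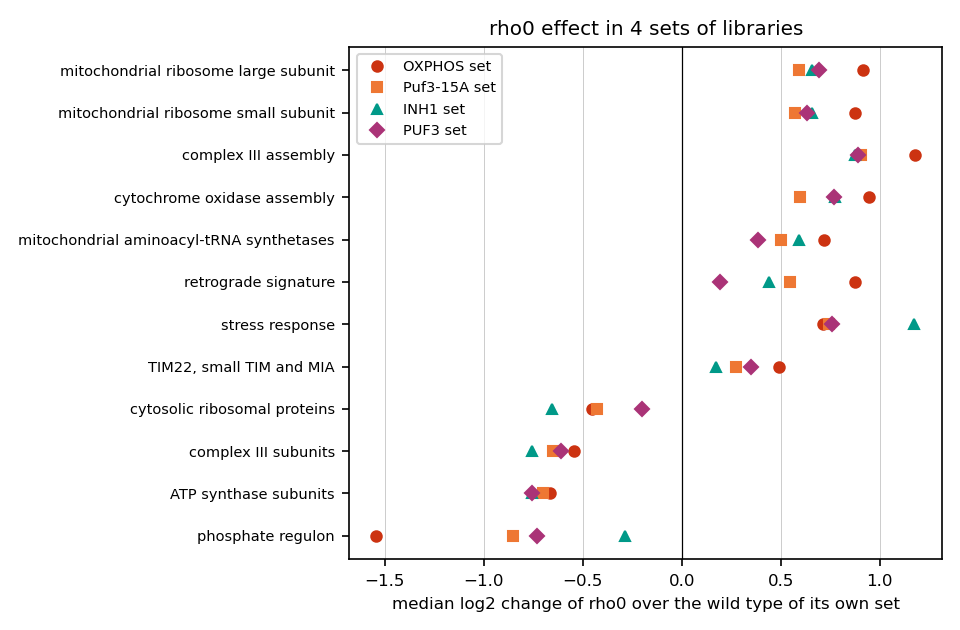
Median log2 change of rho0 over the wild type of its own set for 12 gene lists in 4 sets of libraries. Mitochondrial ribosome and assembly lists lie between 0.5 and 1.2 and ATP synthase subunits near -0.7 in each set, while the phosphate regulon runs from -0.29 in the INH1 set to -1.54 in the OXPHOS set.

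The counts of calls between sets changed when 1 library was left out. The difference from the PUF3 set was called for 640 genes (9.34%), from the Puf3-15A set for 224 (3.27%) and from the INH1 set for 1267 (18.5%). Leaving out PUF3-set rho0 replicate 1 or wild type replicate 1 gave 1310 and 1043 genes in place of 640. Leaving out rho0 replicate 2 or 3 or wild type replicate 2 or 3 of that set gave 374, 326, 346 and 379, and leaving out OXPHOS rho0 replicate 2 gave 404. For the INH1 set, leaving out wild type replicate 1, 2 or 3 there gave 790, 840 and 828 genes in place of 1267. Leaving out rho0 replicate 1, 2 or 3 there gave 812, 801 and 808, so no library of that set stood apart. Without OXPHOS rho0 replicate 1, 2 or 3 the counts were 829, 807 and 919. Without OXPHOS wild type replicate 1, 2 or 3 they were 1110, 994 and 1002, and without replicate 4, 5 or 6 they were 1564, 1568 and 1565.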

How the data were processed

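Poly(A) RNA of 39 of the 86 libraries was used: 18 of the OXPHOS set and those labelled wild type, rho0 or atp7 without further change in 3 other sets; 47 columns of other samples were not used. The values are RPKM as deposited by the authors; per the submitters' processing notes the tools were CASAVA 1.9, STAR 2.6.1a, featureCounts and edgeR 3.28.1, with genome build R64. The labels do not say that libraries marked strand, so a gene and an overlapping partner cannot be told apart. Symbols and coordinates came from RefSeq's R64 table, which matched 6048 of 7126 features, 5281 with a symbol.

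RPKM values were filtered (at least 1 RPKM in at least 3 libraries), rescaled by trimmed means of log ratios (30% and 5% trimmed), transformed to log2(RPKM + 1) and fitted with limma 3.58.1 in R 4.3.3, 1 mean per group, with a mean-variance trend. Results for each trio came from a fit with wild type as 2 groups, and differences between sets from a fit over 4 sets. The script was tested on simulated data. There were 3 rho0 and 6 wild-type libraries. The precision is limited by their number and by a depth of 9964506 to 13478385 implied reads.

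Same-numbered rho0 and wild-type libraries had residual correlations of -0.088, 0.009 and 0.099. Wild-type residuals were taken from the mean of both trios together and so carry the difference between them. The check therefore cannot decide whether the numbers pair the libraries. By the numbers in the file headers, wild type 4 to 6 would match rho0 1 to 3. The correlations were then 0.118, 0.042 and -0.107, with the same limit. The replicate block used the labels' numbers. Named genes were the 12 largest rises and falls that held against both trios without overlap of the libraries (mean log2 of at least 3), members of 56 gene lists with the smallest p or against their list's majority, preset genes of these pathways, and the largest differences from atp7, between trios and between sets; others in the text were chosen after their values were seen. The members and lists were chosen with earlier results of these data known. Leaving out a library kept the rescaling factors of the whole fit; a version with the rescaling redone, and the PUF3-set libraries for rho0 against atp7, were added after seeing the data. Other alternatives changed the pseudocount (0.1, 5), filter, rescaling, libraries, replicate block and test (voom on approximate reads, which called 3031 genes for rho0 against wild type). Figures used matplotlib 3.10.9.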

Additional observations from a re-analysis of the deposited data

Results flagged for a closer look

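Among the 291 named genes, 11 had a wild-type library standing apart from the other 5 by more than Dixon's 95% limit. Chance flags about 1 in 20 groups drawn from a single normal population. The wild-type libraries fell into trios that differ, so that rate need not hold here. The library was the highest for GIT1 (69.6 RPKM), TIM23 (299.8 RPKM), VTC1 (1120.0 RPKM), TRX3 (56.97 RPKM), LYS21 (242.2 RPKM) and VMA4 (817.1 RPKM). It was the lowest for MIR1 (417.8 RPKM), HMX1 (36.5 RPKM), SUC2 (31.88 RPKM), RPL9B (657 RPKM) and SRD1 (17.27 RPKM).

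The rho0 change differed between sets by a test of the difference itself. It was called for 640 genes between the OXPHOS and PUF3 sets. The largest log2 differences by the naming rule were 2.65 for ZPS1, 1.56 for HSP26 and 1.48 for NCA3, and -2.25 for MFA2, -1.94 for MFA1 and -1.89 for PHO12. Against the Puf3-15A set 224 genes were called, with 1.20 for NDJ1, 0.89 for SRD1 and 0.83 for TEC1, and -2.04 for IMD2, -1.80 for SPL2 and -1.77 for GIT1. Against the INH1 set 1267 genes were called, with 3.56 for ZPS1, 2.28 for NCA3 and 1.60 for ADH4, and -7.79 for MFA2, -6.67 for MFA1 and -5.61 for STE2. MFA1, MFA2 and STE2 are mating-type genes that were nearly absent from the wild-type libraries of the INH1 set.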

How the results depend on the processing

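Of the alternative counts of called genes, 337 were within 1.5 times the reported count and 35 were not. With only the compared groups fitted, 3190 genes were called for rho0 against atp7, 143 for the difference from the PUF3 set and 1281 for rho0 in the PUF3 set. With the replicate number as a block, 1557, 1331 and 2658 genes were called for the differences from the PUF3, Puf3-15A and INH1 sets. Leaving out 1 library gave 326 to 1310 genes for the difference from the PUF3 set and 790 to 1568 for that from the INH1 set. It gave 2808 to 3388 for rho0 against wild type and 1388 to 1595 against atp7. Whether the numbers pair the samples could not be decided. The block leaves only wild type 1 to 3 to inform rho0 against wild type. Without rescaling, higher and lower calls became 1819 and 1018 against cor1, 1862 and 980 against cox9, 2533 and 1411 against wild type 4 to 6, 1632 and 864 for both trios, 429 and 233 for the difference from the PUF3 set, 1492 and 1145 in the Puf3-15A set, 2335 and 1382 in the INH1 set, and 1087 and 1984 between trios. Among list medians, mtDNA maintenance turned to 0.006 against wild type 4 to 6 and 0.037 without rescaling, and the late TCA cycle to 0.10 against wild type 4 to 6. Among named genes, HSP42 turned to -0.47 with the block, RGI1 to -1.002 with the block and against wild type 1 to 3, SDH3 to -0.18 against wild type 1 to 3, and BSC1, PRM7 and SDH4 to -1.49, -1.25 and 0.13 against wild type 4 to 6. The cause was not tested. A search for motifs was not run because no genome sequence was used here.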

Other observations

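In several further gene groups called genes had no common direction, and the shares called in ergosterol, heme and peroxisome genes were near or below those over all genes (25.2% higher and 23.5% lower). Of 22 antioxidant genes 13 were called higher and 5 lower in rho0 than in wild type, from 1.05 on the log2 scale for the peroxidase gene GPX1 to -0.41 for GSH1, the first enzyme of glutathione synthesis. Among 24 ergosterol genes 4 were higher and 5 lower, and among 8 heme synthesis genes 3 were higher (1 of them against both trios) and HEM15, ferrochelatase, was lower (-0.46). Among 16 peroxisome and beta-oxidation genes 4 were higher, led by the import factor gene PEX21 (1.31), and POT1, the thiolase gene, was lower (-0.32). Coenzyme Q synthesis genes were the exception, with 7 of 10 higher and 0 lower.

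Some genes of cell identity changed. Of 11 haploid-specific genes 6 were higher and 1 lower than in wild type, against 25.2% and 23.5% of all genes. The rise was seen only against wild type. In rho0 against atp7, cor1 and cox9, 0 of the 11 were higher and 3, 4 and 4 lower. Over all genes 12.6%, 22.1% and 21.2% were lower in these comparisons. STE3, the a-factor receptor gene of the opposite mating type, rose by 1.52, within a sum over the 4 alpha-specific genes of 39.7 to 42.1 RPKM in rho0.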
